A study of Mus musculus with 6 samples.

Results

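The Adamts genes encode secreted metalloproteases with thrombospondin repeats, which cut proteins of the extracellular matrix. The 10 listed here were taken by name: Adamts1, Adamts2, Adamts3, Adamts4, Adamts5, Adamts6, Adamts10, Adamts12, Adamts14 and Adamts20, out of 15771 protein-coding genes on covered sequence. Every peak of methylated DNA whose midpoint lay in a gene body or within 10 kb of either gene end was assigned to that gene, which gave 85 of the 84111 peaks of the list. The aggrecanases (Adamts4, Adamts5) were set against the procollagen proteases (Adamts2, Adamts14) and against the remaining 6 genes. Peak density differed widely between single genes. With the 10 kb flanks, Adamts4, Adamts14 and Adamts20 had the most peaks per 100 kb. In the body alone, Adamts1 (21.5) and Adamts10 (16.6) also stood above Adamts20 (12.8). The long genes Adamts3, Adamts12 and Adamts6 had the fewest in both counts. Of the aggrecanase pair, Adamts4 was dense in peaks and Adamts5 near the median gene.

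Aggrecanases cut the core protein of aggrecan, the proteoglycan that lets cartilage hold water, and Adamts5 is known as the main aggrecanase of mouse joint cartilage. Procollagen proteases remove the amino-terminal propeptide from fibrillar procollagens so that collagen can assemble into fibrils. DNA methylation at CpG sites is copied to the new strand after replication by Dnmt1, and proteins with a methyl-CpG-binding domain, such as MBD2, bind DNA that carries it.

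The samples were primary cultures of chondrocytes, the cells of cartilage, from the knee joint cartilage of mice at postnatal day 3 to 5. In 3 cultures the genotype was Dnmt1 flox, given in the labels as control with no word on copies of the floxed allele or on Cre. In the other 3 it was Prx1-Cre;Dnmt1 flox/flox, the conditional knockout (cKO), in which Cre is driven in early limb mesenchyme and thus in more than the cartilage lineage. Methylated DNA was captured with MBD2 and sequenced (MBD-seq). The files give no RNA values, so the cell type label could not be set against marker expression. All values below come from a list called on 3 merged datasets whose group is not named, although the list's name ties its regions to Dnmt1. No value belongs to 1 sample, the depth of each sample is unknown, and neither a comparison of control with cKO nor a spread between animals can be given. Genes and peaks are not replicates, so the differences between genes are described and not tested.

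The starts of the genes are shown first, because no peak lay over any of those that could be placed. The promoter table covered 6 of the 10 genes, with a window of 300 bp each, from 250 bases before to 50 after a transcription start. None of the 6 windows was overlapped by a peak, against 2.96% of the 15386 promoter windows of protein-coding genes (455 windows), so that a count of 0 among 6 is near the background. The 4 windows below, from RefSeq (GRCm38.p6), run 5′ to 3′ and span the range of CpG content among the 6. Capitals mark CG, the site that carries methylation, which reads the same on both strands.
Adamts14: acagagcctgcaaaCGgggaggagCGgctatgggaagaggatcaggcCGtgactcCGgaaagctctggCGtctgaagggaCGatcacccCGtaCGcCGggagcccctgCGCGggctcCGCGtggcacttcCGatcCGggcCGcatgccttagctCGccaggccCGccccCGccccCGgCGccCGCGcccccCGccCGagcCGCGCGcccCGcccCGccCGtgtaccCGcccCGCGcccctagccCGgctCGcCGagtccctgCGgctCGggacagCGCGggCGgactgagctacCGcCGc
Adamts20: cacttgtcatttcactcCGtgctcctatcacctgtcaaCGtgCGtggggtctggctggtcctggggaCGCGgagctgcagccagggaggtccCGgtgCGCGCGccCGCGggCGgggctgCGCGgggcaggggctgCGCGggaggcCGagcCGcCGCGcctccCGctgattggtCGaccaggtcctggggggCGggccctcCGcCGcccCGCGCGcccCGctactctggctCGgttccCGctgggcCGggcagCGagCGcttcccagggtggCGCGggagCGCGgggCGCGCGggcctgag
Adamts1: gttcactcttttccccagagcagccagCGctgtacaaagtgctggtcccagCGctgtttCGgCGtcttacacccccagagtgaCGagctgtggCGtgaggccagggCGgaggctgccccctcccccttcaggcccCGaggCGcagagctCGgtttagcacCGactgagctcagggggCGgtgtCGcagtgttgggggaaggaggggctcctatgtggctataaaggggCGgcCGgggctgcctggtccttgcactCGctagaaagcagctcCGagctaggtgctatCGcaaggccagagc
Adamts12: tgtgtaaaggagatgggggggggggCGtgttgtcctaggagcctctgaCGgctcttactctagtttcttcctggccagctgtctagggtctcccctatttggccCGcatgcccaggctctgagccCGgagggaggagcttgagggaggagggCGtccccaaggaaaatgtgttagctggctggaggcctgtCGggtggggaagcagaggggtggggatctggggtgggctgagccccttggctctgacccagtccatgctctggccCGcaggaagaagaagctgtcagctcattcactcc
They lie at chr10:61273370-61273669 (minus strand), chr15:94404301-94404600 (minus strand), chr16:85803064-85803363 (minus strand) and chr15:11064523-11064822 (plus strand).

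The Adamts14 window held 44 CG, more than 96.7% of promoter windows. Adamts2, Adamts3 and Adamts20 held 41 each, Adamts1 held 18 and Adamts12 held 7, where the median window has 14 and 96.1% have at least 1. Across all windows, a peak lay over 4.52% of the 6570 with at most 10 CG, over 2.65% of the 5018 with 11 to 25 CG and over 0.658% of the 3798 with more than 25 CG. The 4 CG-rich Adamts windows thus belong to the class of promoters least often covered in this list.

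The nearest peak to a transcription start was 2.33 kb away at Adamts14, where it lay downstream and was also the peak of highest fold in the gene. At Adamts2 it was 2.51 kb downstream and at Adamts1 5.19 kb downstream. These distances were shorter than the median of 8.20 kb over all windows. At Adamts20 the nearest peak was 11.6 kb upstream and at Adamts12 12.9 kb upstream. The start of Adamts3 stood farthest off, with its nearest peak 52.4 kb downstream, a distance exceeded by few promoters, since 96.1% had a nearer peak.

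Each of the 10 genes had at least 1 peak in its body, where 64.7% of protein-coding genes have one, and so each had one in its window of body and flanks, where 81.7% have one. The window share rises with gene length, from 72.4% of genes under 20 kb to 99.6% of those over 200 kb. Adamts2, Adamts3, Adamts6 and Adamts12 are over 200 kb, so the shares over all genes are not matched for length. Of the 85 peaks, 78 lay in the gene bodies. Per length, the window density of the 10 genes together was 5.88 peaks per 100 kb, close to the 5.78 of all protein-coding genes pooled. The median gene among the 10 had 6.74 peaks per 100 kb and the median protein-coding gene 4.82. The family as a whole was therefore at about the level of other genes, and the spread lay inside it, from 1.74 to 18.7 peaks per 100 kb.

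**Figure D1:**
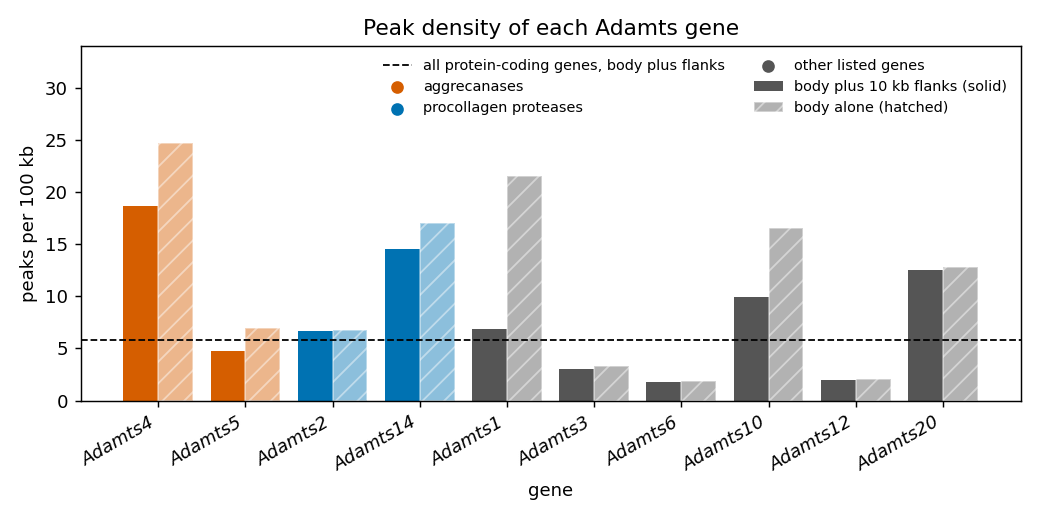
Peaks per 100 kb (vertical axis) for each Adamts gene, counted in the body with 10 kb flanks (solid bars) or in the body alone (hatched bars), with the pooled value of all protein-coding genes for body and flanks (5.78, dashed line). Adamts4 (18.7), Adamts14 (14.5), Adamts20 (12.5), Adamts10 (9.97), Adamts1 (6.83) and Adamts2 (6.65) stand above the line in the window. Adamts5 (4.76), Adamts3 (3.05), Adamts12 (1.97) and Adamts6 (1.74) stand below it. Bars carry no error because the list has no replicates.

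The aggrecanases held 9 peaks over 95.1 kb of windows, 9.46 per 100 kb, and the procollagen proteases 29 over 321.8 kb, 9.01 per 100 kb. The remaining 6 genes held 47 peaks over 1028 kb, 4.57 per 100 kb. They include Adamts3, Adamts6 and Adamts12, all over 200 kb, where the median protein-coding gene had 2.57. In the other classes only Adamts2 is that long. Whether gene length accounts for the lower value was not tested. The classes of 2 genes differed by -0.451 peaks per 100 kb (procollagen minus aggrecanase), far less than the 2 aggrecanases differed from each other. The direction was not stable. The difference turned to 1.58 among peaks with a −log10 q of at least 50. It was 1.34 when peaks inside another protein-coding gene were left out. There the window lengths still held the other genes' sequence, which lowers densities by construction, so that sign cannot be read. When Adamts3, which is also a procollagen N-protease, was counted with Adamts2 and Adamts14, that class had 6.53 peaks per 100 kb.

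Fold enrichment is the peak's signal over the background that the authors' peak caller assigned to it, and is the authors' value. Which library or group supplied that background is not given in the sources used here, so whether a fold sets one group against the other cannot be told. Its median was 11.1 over the aggrecanase peaks (quartiles 9.22 and 11.7), 13.6 over the procollagen protease peaks (9.77 and 23.3) and 12.2 over the other Adamts peaks (8.28 and 26.3), against 13.2 over the whole list (8.41 and 21.7). All 3 medians lie within the quartiles of the whole list. A fold of at least 20 was reached by 2 of 9 aggrecanase peaks, 8 of 29 procollagen protease peaks and 17 of 47 others, together 31.8% of the 85, near the 28.9% of the list. Median widths were 309 bp, 381 bp and 424 bp in the same order, and 415 bp in the list. The median width was lowest for the aggrecanases (quartiles 274 and 326 bp), although they include peaks of 967 and 716 bp and the other Adamts genes had a lower first quartile, 231 bp.

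**Figure D2:**
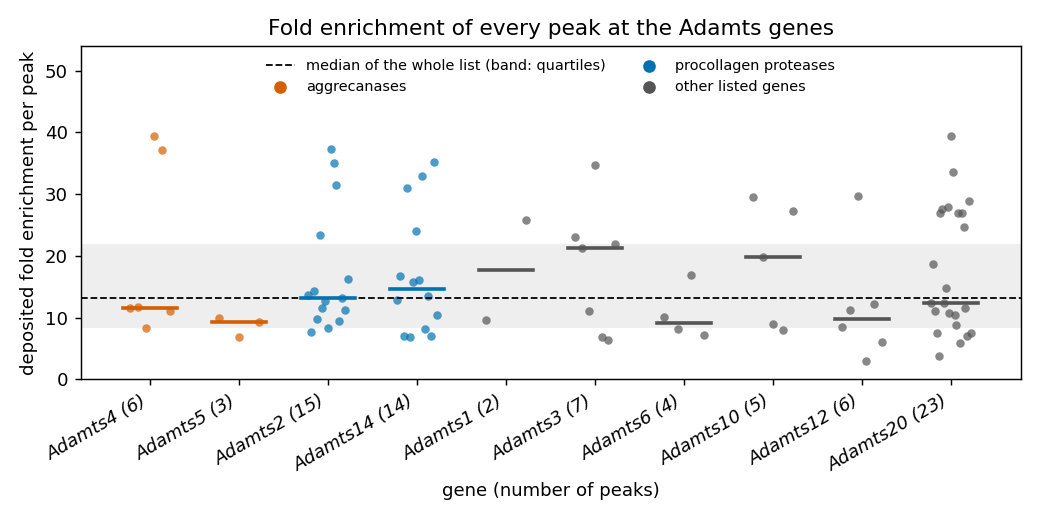
Deposited fold enrichment (vertical axis) of each of the 85 peaks by gene, with the number of peaks in brackets; short bars are gene medians, the dashed line is the median of the whole list (13.2) and the grey band its quartiles (8.41 and 21.7). Adamts5 and Adamts6 have no peak above a fold of 20, while Adamts4 has 2 peaks at 39.5 and 37.2 and its other 4 between 8.28 and 11.7.

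Adamts4 and Adamts5 differed in number, density and height of their peaks. Adamts4 (chromosome 1, 171250129 to 171262267) is a short gene of 12.1 kb with 6 peaks in its window, 18.7 per 100 kb. That density was above those of 92.5% of all protein-coding genes and of 90.1% of the 8195 such genes under 20 kb. Of the 6 peaks, 3 lay in the body and covered 16.1% of it, the largest covered share among the 10 genes. The highest was chr1:171256222-171257188, 967 bp wide with a fold of 39.5, a −log10 q of 357 and a pileup of 290 reads. Counting error alone gives that fold a range of 35.1 to 44.3 (95% exact Poisson interval of the pileup; reads copied by PCR are not independent molecules, so intervals here cover counting error only). Beside it, chr1:171258675-171259390 had a fold of 37.2 over 716 bp. The third body peak, chr1:171252697-171252970, had a fold of 8.28.

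In the body alone, Adamts4 had 24.7 peaks per 100 kb, the highest of the 10 genes. In the window, 2 of its 3 flank peaks lie inside another protein-coding gene. Without such peaks Adamts4 had 12.4 per 100 kb, beside 14.5 in Adamts14 and 12.5 in Adamts20. That count was still divided by the full window, with the other gene's sequence left in, so the value is low by construction. The rank of Adamts4 without that sequence cannot be told from it. Among peaks with a −log10 q of at least 50 Adamts4 had 15.6, above Adamts14 (10.4) and Adamts20 (10.3). At a −log10 q of at least 100 it had 6.22, from 2 peaks, below Adamts14 (7.27) and Adamts20 (7.07). At a fold of at least 10 the values were 15.6, 10.4 and 9.25 in the same order.

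Adamts5 (chromosome 16, 85858157 to 85901125; 43.0 kb) had 3 peaks, all in the body, 4.76 per 100 kb, just under the median protein-coding gene. Its peaks were low and narrow. The peak at chr16:85866618-85866851 had a fold of 9.90 (7.78 to 12.4 by counting error), that at chr16:85869997-85870192 a fold of 6.92, and that at chr16:85899174-85899495 a fold of 9.22. Widths ran from 196 to 322 bp and pileups from 50 to 72 reads. The highest Adamts5 peak had a lower fold than the highest peak in each of the other 9 genes. Those genes had from 2 (Adamts1) to 23 (Adamts20) peaks, and a highest value depends on the number of peaks. The difference was not tested. A stretch of 29.2 kb, 68.0% of the gene body, held no peak midpoint. Adamts1 lies on the same chromosome close to Adamts5 and is treated with the remaining genes.

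The procollagen proteases Adamts2 and Adamts14 had nearly the same number of peaks on genes of different length. Adamts2 (chromosome 11, 50602085 to 50807573; 205.5 kb) had 15 peaks, 6.65 per 100 kb. Adamts14 (chromosome 10, 61197112 to 61273419; 76.3 kb) had 14 peaks, 14.5 per 100 kb, which was above 91.3% of the 1933 protein-coding genes of 50 to 100 kb. Adamts2 was nonetheless above 85.2% of the 776 genes over 200 kb, a class whose median gene had only 2.57. Both genes therefore sat high among genes of their own size.

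In Adamts2 the peaks gathered at the 3′ end. Of its 14 body peaks, 6 lay in the last 10% of the gene, within 16.6 kb. Their median fold was 22.3 against 12.1 for the 8 other body peaks. These medians depend on the cut. It fell between a peak at 89.3% of the body with a fold of 8.28 and the highest peak, at 90.2%. The 6 also include folds of 9.48, 11.3 and 13.2. How fold varies with position in the whole list was not analysed here. The highest, chr11:50787147-50787641, had a fold of 37.3 (33.0 to 42.0) and a −log10 q of 331, and was followed by peaks with folds of 35.0 and 31.5. Among them, chr11:50796142-50797278 was the widest Adamts peak at 1137 bp; its 344 reads stood over a background of 35.4, which gave a fold of 9.48. The longest stretch without a peak midpoint was 58.3 kb in the middle of the gene. The only flank peak, with a fold of 16.3, lies inside the neighbouring zinc finger gene Zfp354c.

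In Adamts14 the peaks were spread along the body, with 1 of 13 in the last 10%, 2 in the first 10% and 8 in the 3′ part beyond the midpoint. The highest was chr10:61270831-61271355, near the 5′ end, with a fold of 35.1 (31.0 to 39.7) and a pileup of 258 reads. Peaks with folds of 33.0 (chr10:61245717-61246302) and 31.0 (chr10:61221607-61222120) lay farther along the gene. The lowest of the gene had a fold of 6.78. Peaks covered 6.24% of the Adamts14 body and 2.88% of the Adamts2 body.

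Adamts3, which also trims procollagens and is best known for activating the lymphatic growth factor VEGF-C, shared the 3′ gathering but not the number. The gene (chromosome 5, 89673841 to 89883668; 209.8 kb) is as long as Adamts2 and had 7 peaks, 3.05 per 100 kb, above 59.3% of the genes over 200 kb. Of these, 4 lay in the last 10% of the gene within 7.40 kb, with a median fold of 22.2, against 6.92 for its 3 other peaks. The highest was chr5:89691125-89691666, with a fold of 34.7 (30.6 to 39.2); the peak beside it at chr5:89689785-89690141 lies in the pseudogene Gm42162. Over the 6 genes whose strand is in the promoter table, 22.2% of 63 body peaks were in the last 10% and 12.7% in the first 10%. Of the 8 peaks in the first 10%, 4 are in Adamts20, upstream of its start in the promoter table. Over 12547 protein-coding genes with a strand the shares were 16.5% and 5.66% of 35568 body peaks, so a surplus at the 3′ end over the 5′ end was general in the list.

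**Figure D3:**
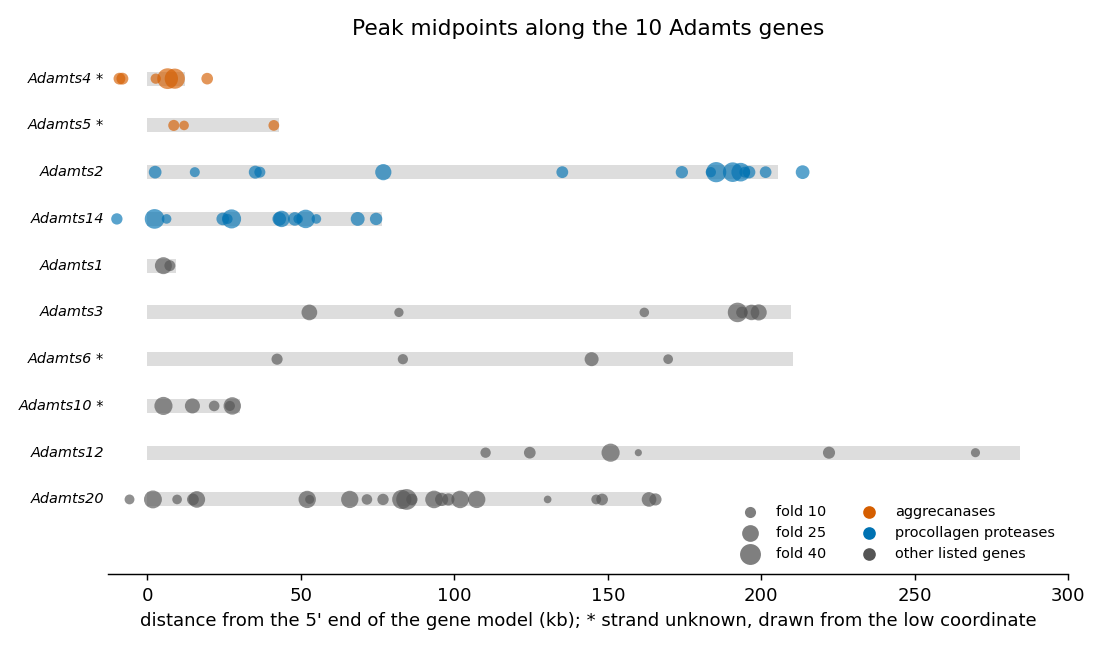
Peak midpoints along each gene body (grey bar, to scale) and its 10 kb flanks, as distance in kb from the 5′ end. Flank peaks stand off the bar. An asterisk marks genes whose strand is not in the table, drawn from the low coordinate. Point area grows with fold; the 3 highest peaks of Adamts2 and the 2 highest of Adamts3 lie in the last 10% of the gene, where Adamts14 and Adamts20 have no peak of a fold of 20 or more.

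Among the remaining genes Adamts20, which is needed for the survival of pigment cell precursors and whose mutation gives the belted coat of mice, had the most peaks. The gene (chromosome 15, 94268314 to 94432074; 163.8 kb) held 23 peaks, 21 of them in the body, 12.5 per 100 kb, above 91.2% of the 1119 genes of 100 to 200 kb. Its folds ran from 3.77 to 39.3 with a median of 12.3, and 9 peaks reached a fold of 20. The highest was chr15:94347359-94347934, with a fold of 39.3 (35.0 to 44.1) and 289 reads, a counting interval that overlaps almost wholly with that of the highest Adamts4 peak. The peak at chr15:94268183-94269104 (922 bp, fold 18.7) was the only one among the 10 genes within 1 kb of a gene end, here the 3′ end. In all, 21.8% of protein-coding genes have such a peak. The longest stretch without a peak midpoint in Adamts20, 36.0 kb, contains the transcription start of the promoter table, which lies inside the longer gene model used for the body.

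Adamts10, which acts on fibrillin microfibrils and is mutated in a human short-stature syndrome, and its close relative Adamts6 differed in density. Adamts10 (chromosome 17, 33523646 to 33553782; 30.1 kb) had 5 peaks, 9.97 per 100 kb, with a median fold of 19.8. That density was above 71.7% of the 3748 genes of 20 to 50 kb. The median gene of that length had 5.84 peaks per 100 kb, against 2.57 for genes over 200 kb, the class of Adamts6. Its highest peak, chr17:33528608-33529107, had a fold of 29.6 (25.8 to 33.8). Adamts6 (chromosome 13, 104286518 to 104496695; 210.2 kb) had 4 peaks, 1.74 per 100 kb, the lowest density of the 10, above 31.1% of the genes over 200 kb. They were chr13:104328607-104328900 (fold 10.0), chr13:104369662-104369823 (fold 8.14), chr13:104431025-104431448 (fold 17.0) and chr13:104456108-104456241 (fold 7.19). The highest of these, with a counting interval of 14.1 to 20.2, lies in the pseudogene Gm8680. Adamts2, Adamts3 and Adamts6 are nearly equal in length and had 15, 7 and 4 peaks.

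Adamts12, which cuts the cartilage oligomeric matrix protein, is the longest of the 10 genes (chromosome 15, 11064773 to 11349232; 284.5 kb) and had 6 peaks, 1.97 per 100 kb, above 36.7% of the genes over 200 kb. The first 110.2 kb of the gene from its 5′ end, 38.7% of the body, held no peak midpoint. Its highest peak, chr15:11215439-11215913, had a fold of 29.7 (25.9 to 33.9). The peak at chr15:11224338-11225092 had the lowest fold of all 85, 3.03, although its pileup of 442 reads was among the 2 largest. Adamts1, a protease that cuts versican and is known from ovulation, is the shortest gene (chromosome 16, 85793827 to 85803113; 9.29 kb). It had a peak with a fold of 25.8 (22.2 to 29.7) at chr16:85797669-85798172 and another with a fold of 9.63 at chr16:85795684-85795944. Both were in the body. Its density depended on the window, since the flanks are longer than the gene: it was 6.83 per 100 kb with flanks and 21.5 in the body alone.

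The reads behind the folds were recovered from each peak's fold and p-value. All 85 Adamts peaks were matched by a whole-number pileup, from 44 to 460 reads with a median of 100, against 127 in the list. A background of 6.37 reads applied to 76 of them (89.4%), against 74.98% of all peaks. No Adamts peak had a lower one, and it is called the lowest background here. Whether other peaks of the list had a lower one is not shown. The background of 6.37 reads applied to 9 of 9 aggrecanase, 25 of 29 procollagen protease and 42 of 47 other peaks. The 9 peaks above it belonged to Adamts2 (1), Adamts12 (1), Adamts14 (3) and Adamts20 (4). At Adamts20 the peak at chr15:94301288-94302081 had the largest pileup of all, 460 reads, over a background of 121 reads, for a fold of 3.77. The low folds of Adamts5 and the lowest folds of Adamts12 and Adamts20 were thus of different kinds, with few reads over the lowest background in the first case and many reads over a high background in the other.

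**Figure D4:**
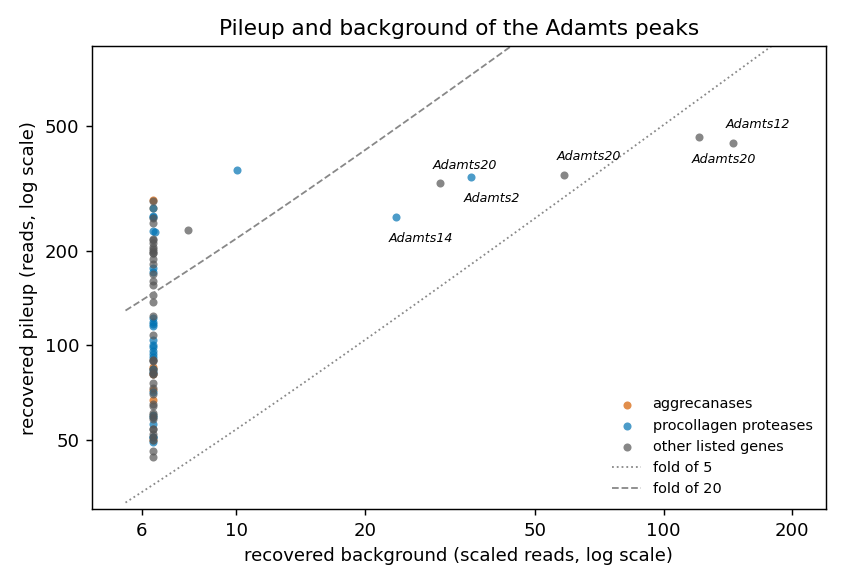
Recovered pileup (vertical axis, reads, log scale) against recovered background (horizontal axis, scaled reads, log scale) for the 85 peaks, with lines for a fold of 5 and of 20. The column of points at the left is the 76 peaks at the lowest background of 6.37 reads; peaks with a background above 20 reads carry their gene's name and all lie under a fold of 20.

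Wider peaks had higher folds. Spearman's rho between width and fold was 0.67 over the 85 Adamts peaks and 0.55 over the whole list. It was 0.91 over the 76 Adamts peaks at the lowest background. These are descriptions across peaks of 1 list, in which width and height come from the same reads. A width over 1 kb was found in 2 of 85 Adamts peaks (2.35%) and in 3.92% of all peaks.

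Genes that work with the Adamts proteases were given from 4 lists, and the genes named here were chosen after their values were seen. Of 14 other family members (8 on covered sequence), all 8 had a peak in the body or flanks, with a median of 8.76 peaks per 100 kb; 81.7% of protein-coding genes have one, with a median of 4.82 per 100 kb. Adamts13, which cuts von Willebrand factor, had 12.4 peaks per 100 kb, and Adamts16 had 1.49. Of the 9 covered substrate genes 7 had a peak, with a median of 7.97. Col2a1, the main cartilage collagen and a procollagen substrate, had 7 peaks (14.2 per 100 kb), Vcan, the versican gene, had 5 (4.64), and Col1a2 and Col3a1 had 0. The aggrecan gene Acan was not analysed here. All 5 covered genes of inhibitors, activators and clearance had a peak, with a median of 9.41. Lrp1, the receptor that takes up Adamts4 and Adamts5 from the matrix, had 33 peaks (32.0 per 100 kb), while Timp3, the main tissue inhibitor of the aggrecanases, had 1 (1.45 per 100 kb). All 5 covered genes of other matrix proteases had a peak, with a median of 12.0. Bmp1, which removes the opposite, carboxy-terminal propeptide of procollagens, had 12 peaks (18.1 per 100 kb). The medians of all 4 lists were above that of all protein-coding genes, which is a description of few genes and was not tested.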

How the data were processed

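MBD-seq was performed on 6 chondrocyte cultures, and 1 peak list for the whole series was used. Per the submitters' processing notes, fastp, Bowtie2 and MACS2 were used with the mm10 (GRCm38) build; versions are not given in the sources used here. The peak names show a Samtools merge of 3 datasets ahead of peak calling. Each peak has a deposited fold, a ratio of its signal to the background set by the caller, and deposited −log10 p and −log10 q values, of which the −log10 q starts at 20.0. The deposited score repeats the −log10 q at 10 times its size without decimals. Start, end and summit are positions; coordinates are printed 1-based. An incomplete last line was left out.

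Genes and promoters came from RefSeq tables of GRCm38.p6, without exons, so exonic and intronic positions were not analysed here. Genes starting within the first 3 Mb of a chromosome, and those on sequence not in the list used (chromosomes 7, 8, 9, X, Y and the end of 6), were left out. Pileup and background were solved from fold = (pileup + 1)/(background + 1) and a Poisson p, within 1% of the spacing between whole pileups, which matched 99.97% of peaks; this was tested on simulated data. Python 3.11.15, pandas 2.3.3 and SciPy 1.17.1 were used. All 10 genes were to be named, each with its highest peak, every peak within 1 kb of a gene end, and all peaks where there were 4 or fewer. The members and lists were chosen with earlier results of these data known. Peaks were placed by midpoint; alternatives were stricter thresholds, other placements and flanks, merging, the kind of background and the class of Adamts3. Leaving out peaks in other protein-coding genes, and the choice of promoters to print, were added after seeing the data. An item is not reported here.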

Additional observations from a re-analysis of the deposited data

How the results depend on the processing

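No paired analysis was possible because no column of the file belongs to a sample; for the same reason no replicate was left out. Placing peaks by summit or by any overlap changed none of the 7 class values. The difference in density between procollagen proteases and aggrecanases changed sign, from -0.451 to 1.58 and 1.94 peaks per 100 kb at a −log10 q of at least 50 and 100. It was 1.27 at a fold of at least 10 and 1.24 for peaks above the lowest background. Without peaks in other protein-coding genes it was 1.34, but the window lengths still held those genes' sequence, so that sign cannot be read. The difference kept its sign at -1.31 in the body alone, -0.191 and -4.75 with flanks of 2 and 20 kb, -1.07 after merging within 500 bp, -1.69 at the lowest background and -2.94 with Adamts3 moved. Stricter thresholds lower densities by construction. Aggrecanase density was 5.26 at a −log10 q of 50 and at a fold of 10, and 2.10 at a −log10 q of 100; procollagen protease density was 4.04 at 100; that of the other genes was 2.24 at 100 and 3.02 at a fold of 10. Above the lowest background they were 0, 1.24 and 0.487. Median folds at a −log10 q of 100 were 38.3 (2 peaks, both of Adamts4), 24.0 (13 peaks) and 26.9 (23 peaks) in the same order. The other genes gave 21.3 at 50 (33 peaks) and 21.8 at a fold of 10 (31 peaks). Above the lowest background the procollagen proteases gave 20.7 (4 peaks) and the other genes 5.89 (5 peaks), and the aggrecanases have no such peak. A fold threshold removes low folds by construction. So does a −log10 q threshold among peaks at the lowest background, where fold and −log10 q both rise with the pileup. For every other change the cause was not tested. The depth behind the list is unknown.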
